A study of Oryctolagus cuniculus with 24 samples.

Results

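The genes described here encode enzymes of glycolysis and transketolase, measured in peripheral blood mononuclear cells (PBMCs) of rabbits. They were chosen by name, from a list of 10 symbols (HK2, PFKP, TPI1, GAPDH, PGK1, PGAM1, ENO1, PKM, LDHA and TKT), among the 28912 genes that the probes of the array measured. The list was drawn up with earlier results of these data known. A probe was found for 6 of the 10, namely HK2, PFKP, PGAM1, ENO1, PKM and TKT. TPI1, GAPDH, PGK1 and LDHA were not found by name and were not analysed here. PBMCs are the lymphocytes and monocytes of the blood. The donors were 4 rabbits (New Zealand White, adult, female) that the labels number 1, 2, 4 and 5, and each animal gave a culture to all of the 6 groups. Cells were mock-stimulated with buffer, stimulated with lipopolysaccharide (LPS, a bacterial cell wall component) at 1 µg/mL, or stimulated with PMA at 10 ng/mL together with ionomycin at 1 µg/mL. They were harvested at 4 hours (T4) or 24 hours (T24). PMA, a phorbol ester, switches on protein kinase C, and ionomycin carries calcium into cells, so that the mixture acts on lymphocytes without their receptors. Each of the 24 cultures gave RNA for an Agilent array of its own, read in a single colour (Cy3).

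Glycolysis splits glucose into pyruvate in the cytosol and yields ATP without oxygen. Hexokinases trap glucose as glucose 6-phosphate, phosphofructokinases commit it to glycolysis, and phosphoglycerate mutase, enolase and pyruvate kinase carry out the last steps. Glucose 6-phosphate can instead enter the pentose phosphate pathway, whose oxidative branch, with PGD, makes NADPH and whose transketolase returns sugars to glycolysis. Activated lymphocytes and macrophages are known for a high use of glucose, and NADPH serves the oxidative burst of phagocytes.

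The probes are shown first because they decide what each value stands for. All are 60 bases long, and positions are those of the deposited files on the oryCun2 rabbit genome. ENO1 (enolase 1) has 5 probes on chromosome 13, each shifted by a base from the next, so that they count as a single measurement of the same transcript stretch. PFKP (the platelet type phosphofructokinase) has 5 probes without a position in the files, of which 4 overlap. The probe of HK2 (hexokinase 2) covers 1429 bases of chromosome 2 between its ends, so that it crosses at least 1 intron. PGAM1 (phosphoglycerate mutase 1), PKM (pyruvate kinase of muscle and most other tissues) and TKT (transketolase) have 1 probe each, within 60 bases of genome. The PKM probe is listed for both transcript variants of the gene and does not tell them apart. Capitals mark the bases that a probe shares with all other overlapping probes of its gene, 56 for ENO1 and 27 for PFKP, and sequences wholly in lower case overlap no other probe of their gene.
HK2, chr2:111664962-111666390, minus strand: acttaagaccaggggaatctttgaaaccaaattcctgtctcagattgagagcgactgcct
PFKP, outside the overlap: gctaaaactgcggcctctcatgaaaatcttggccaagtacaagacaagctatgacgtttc
PFKP, overlapping: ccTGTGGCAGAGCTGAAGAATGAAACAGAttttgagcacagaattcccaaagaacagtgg
PFKP, overlapping: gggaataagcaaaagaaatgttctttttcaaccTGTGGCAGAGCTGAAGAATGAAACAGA
PGAM1, chr18:45637796-45637855, plus strand: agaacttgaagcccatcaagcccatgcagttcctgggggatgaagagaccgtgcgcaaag
ENO1, the middle probe, chr13:141116465-141116524, plus strand: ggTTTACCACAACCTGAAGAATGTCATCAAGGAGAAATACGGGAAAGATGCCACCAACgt
PKM, chr17:317750-317809, plus strand: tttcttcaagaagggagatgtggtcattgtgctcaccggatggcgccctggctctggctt
TKT, chr9:20187182-20187241, minus strand: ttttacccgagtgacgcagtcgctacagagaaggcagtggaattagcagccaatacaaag
The 14 probes of the 6 genes hold between 35.0 and 55% G and C (median 45.0%), against a median of 43.3% over all 42089 probes. The strand is read from the order of the coordinates in the files. The gene names of HK2, PKM and TKT rest on RefSeq accessions, those of PGAM1 and ENO1 on the gene numbers in the probe descriptions, and that of PFKP on the gene name of the files.

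A level is the log2 median signal of the spots of a gene minus the median over all spots of the same array, so that 0 is the middle of the array and 1 unit is a doubling. Levels of different genes come from different probes and are not set against each other. All 6 genes were well above background on 24 of 24 arrays, with no saturated spot. Between 51.4 and 62.3% of spots per array were well above background. The lowest shares were those of the LPS array of rabbit 4 at T4 (51.4%) and the PMA-Ionomycin array of rabbit 2 at T4 (52.6%), which are named below where they bear on a value. The labelled cell type was checked on marker lists. CD14, CD68, CTSS, CYBB, ITGAM and S100A8 of monocytes, MS4A1 and CD79B of B cells, and CD2, CD5, LCK and ZAP70 of T cells were well above background on 24 arrays. Of the other monocyte markers, CSF1R was so on 22, CLEC7A on 15 and MPEG1 on 12. Of the T cell markers, CD247 was so on 17, CD4 on 5 and CD28 on 4. Of the markers of other blood cells, MMP8 of neutrophils, EPB42 of erythrocytes and GP1BA of platelets were well above background on 0 arrays. However, MPO, CXCR2 and MMP9 of neutrophils and TUBB1 of platelets were on 24, and CAMP of neutrophils was on 17. ALAS2 of erythrocytes was on 22 and SLC4A1 of erythrocytes on 5, and TREML1 and ITGA2B of platelets were on 14 and 11. No fit could tell a smaller number of cells of a type from less RNA per cell, since each array measured a mixture of cells.

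**Figure D1:**
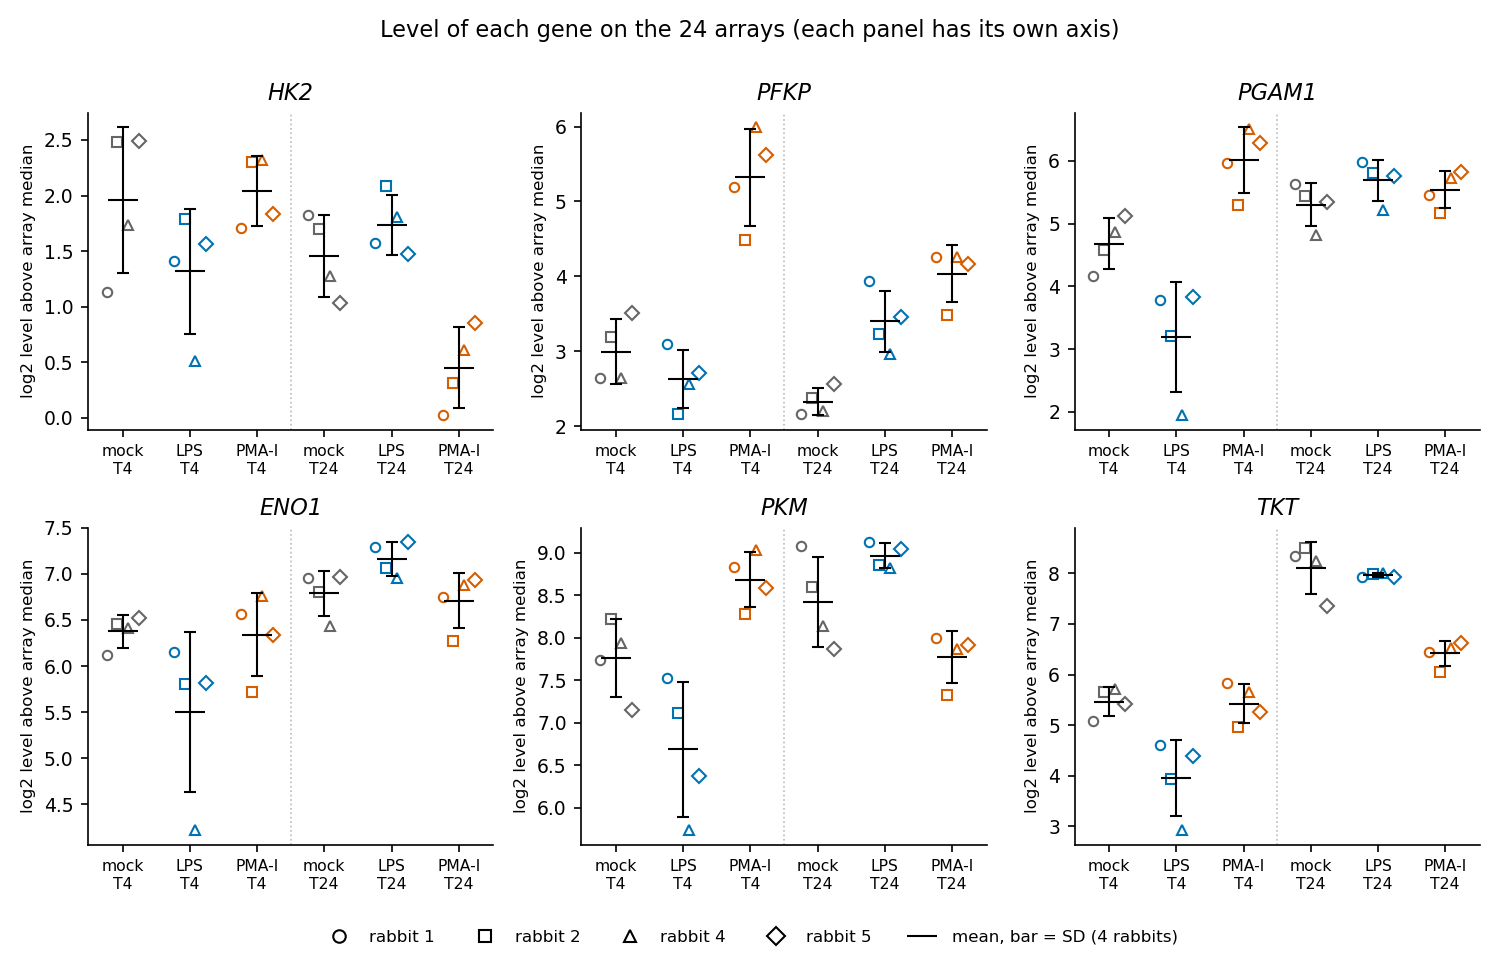
Level of each of the 6 genes (log2 units above the array median, vertical axis) in the 6 groups (horizontal axis), with 1 symbol per rabbit, the mean as a line and the SD of 4 rabbits as a bar; PMA-I is PMA-Ionomycin. PFKP was highest after PMA-Ionomycin at T4, TKT was high in mock-stimulated and LPS-stimulated cells at T24, and the LPS array of rabbit 4 at T4 (triangle) was the lowest of its group in 5 of the panels.

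Each stimulation was compared with mock stimulation of the same time, which asks how the cells responded, and mock-stimulated cells were compared between T24 and T4, which shows what culture alone did. A gene was called differentially expressed (DE) at an adjusted p under 0.05 from limma over all genes. After LPS at T4, 2 of the 6 genes were DE (TKT and PGAM1, both lower), where 1.02% of all genes were DE and 0.968% were DE and lower. The study, from the same arrays, names both among its leading falls after LPS at T4. The list was chosen with such results known, so that this count is not independent of them. After LPS at T24, 0 of the 6 genes were DE in limma, against 1.22% of all genes (0.643% higher and 0.581% lower), and 1 of the 6 (PFKP) had an unadjusted p under 0.05, as did 3137 of all 28912 genes. After PMA-Ionomycin at T4, 3 of the 6 genes were DE (PFKP, PGAM1 and PKM, all higher), against 22.8% of all genes, made up of 13.5% higher and 9.35% lower. After PMA-Ionomycin at T24, 3 of the 6 were DE (PFKP higher, TKT and HK2 lower), against 33.6% of all genes, of which 22.1% were higher and 11.5% lower as shares of all genes. In mock-stimulated cells 1 of the 6 genes (TKT) was DE and higher at T24, against 12.6% of all genes, made up of 7.42% higher and 5.14% lower. These shares include dim genes, whereas the 6 genes were well above background on every array. Without probes that were dim in every group, 17516 genes remained. Of these, 2.48% were DE after LPS at T4 and 2.6% at T24. The shares were 39.1% and 55.5% after PMA-Ionomycin at T4 and T24, and 21.8% in mock over time. The median log2 FC of the 6 genes was -0.98 after LPS at T4, 0.38 after LPS at T24, 0.50 after PMA-Ionomycin at T4, -0.36 after PMA-Ionomycin at T24 and 0.52 in mock-stimulated cells over time. The median over all genes lay between -0.06 and 0.06 in these 5 comparisons. The 4 comparisons with mock share their mock arrays in pairs, so that a high or low mock group moves both stimulations of that time alike.

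**Figure D2:**
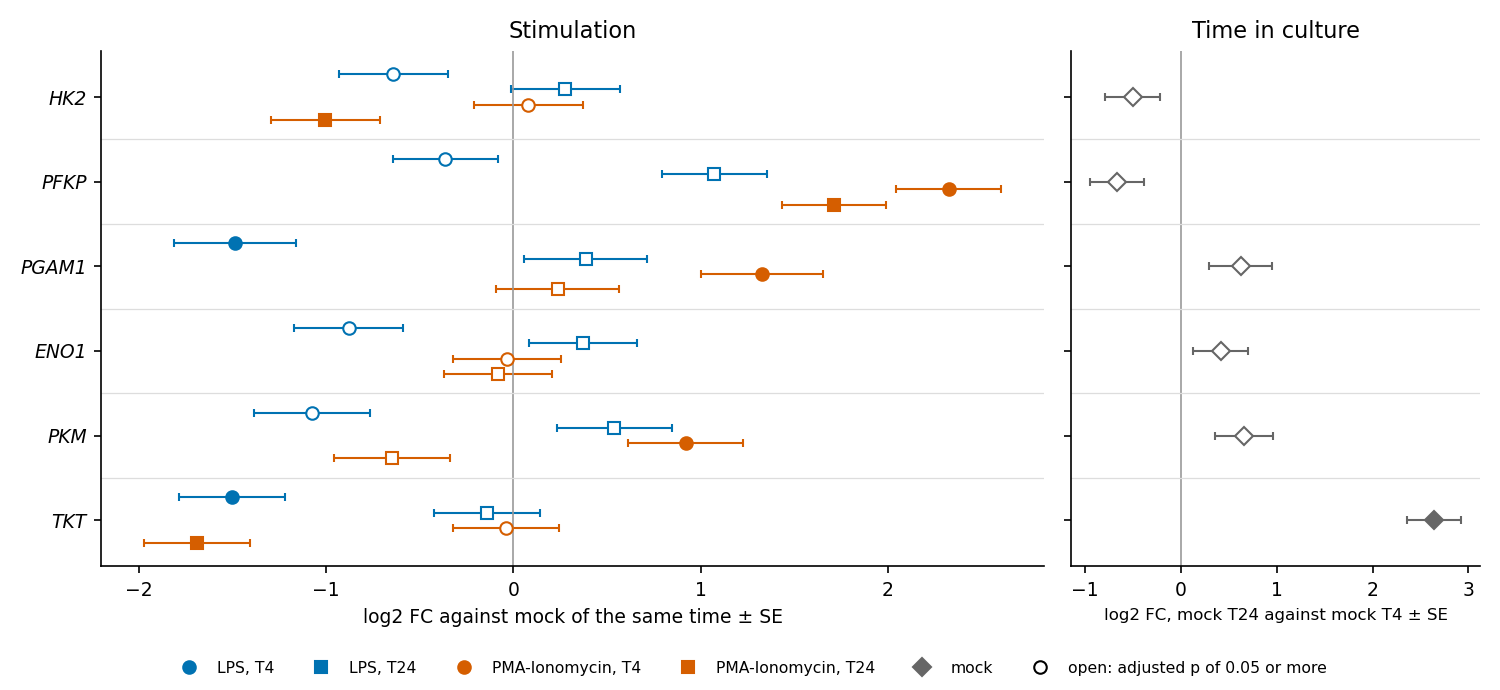
Log2 FC of each gene against mock stimulation of the same time (left) and of mock-stimulated cells at T24 against T4 (right), with bars of 1 SE from limma; filled symbols have an adjusted p under 0.05. PFKP lies to the right for PMA-Ionomycin at both times, and TKT lies far to the right for time in culture (2.64) and to the left for LPS at T4 (-1.50) and PMA-Ionomycin at T24 (-1.69).

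HK2, which phosphorylates glucose on entry, was lower after PMA-Ionomycin at T24 and was not DE in the other comparisons. Its level in mock-stimulated cells at T24 was 1.82, 1.70, 1.27 and 1.03 in rabbits 1, 2, 4 and 5, and after PMA-Ionomycin it was 0.02, 0.32, 0.61 and 0.86. The groups did not overlap, and the level was lower in 4 of 4 rabbits, by as little as 0.18 in rabbit 5 and as much as 1.80 in rabbit 1. This was a log2 FC of -1.0 ± 0.29 (SE, n = 4 per group, adjusted p = 0.00833), or 2.01-fold lower. Without rabbit 1 the log2 FC was -0.74 (adjusted p = 0.0846) and without rabbit 2 it was -0.88 (adjusted p = 0.0628), and with the processed signal it reached -1.67. At T4 the log2 FC after PMA-Ionomycin was 0.08 ± 0.29 (adjusted p = 0.93). The difference between both times was -1.08 ± 0.41 (adjusted p = 0.0615), and with the rabbit as a block its adjusted p was 0.0383. After LPS the log2 FC of HK2 was -0.64 ± 0.29 at T4 (adjusted p = 0.316) and 0.28 ± 0.29 at T24 (adjusted p = 0.872). Ordered by mean, the HK2 level was 2.04 after PMA-Ionomycin at T4, 1.96 in mock at T4, 1.73 after LPS at T24, 1.46 in mock at T24, 1.32 after LPS at T4 and 0.45 after PMA-Ionomycin at T24, and each group overlapped with the next in this order.

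PFKP, an isoform of the enzyme that commits glucose to glycolysis, rose after PMA-Ionomycin at both times. At T4 the level was 2.64, 3.19, 2.64 and 3.51 in mock-stimulated cells of rabbits 1, 2, 4 and 5, and 5.19, 4.48, 5.99 and 5.61 after PMA-Ionomycin. Every stimulated culture lay above every mock culture. This gave a log2 FC of 2.32 ± 0.28 (adjusted p = 1.03e-06), or 5.01-fold, and the 5 probes taken singly gave between 2.29 and 2.36. At T24 the mock levels were 2.16, 2.38, 2.21 and 2.56 and the PMA-Ionomycin levels were 4.25, 3.48, 4.25 and 4.16. These groups were again apart, with rabbit 2 the lowest stimulated culture at both times. At T4 this was the array with 52.6% of spots well above background. The difference was a log2 FC of 1.71 ± 0.28 (adjusted p = 2.75e-05), or 3.28-fold. The change of the PMA-Ionomycin effect from T4 to T24 was -0.61 ± 0.40 (adjusted p = 0.345).

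After LPS, PFKP levels at T24 were 3.93, 3.24, 2.97 and 3.46 in rabbits 1, 2, 4 and 5, all above the 4 mock levels. The log2 FC was 1.07 ± 0.28 (2.10-fold, higher in 4 of 4 rabbits), and its adjusted p of 0.06 missed the threshold. With the rabbit as a block the adjusted p was 0.0239, and over all alternatives it lay between 0.0151 and 0.421, the highest being that without rabbit 1. At T4 the PFKP levels after LPS were 3.1, 2.16, 2.56 and 2.71, which overlapped with mock (log2 FC -0.36 ± 0.28, adjusted p = 0.601). The LPS effect changed by 1.44 ± 0.40 from T4 to T24 (adjusted p = 0.059, and 0.0247 with the rabbit as a block). By mean, PFKP stood at 5.32 after PMA-Ionomycin at T4, 4.04 after PMA-Ionomycin at T24, 3.40 after LPS at T24, 2.99 in mock at T4, 2.63 after LPS at T4 and 2.32 in mock at T24. The first group lay above all values of the next, and from there on neighbours in this order overlapped.

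PGAM1, which moves the phosphate of phosphoglycerate late in glycolysis, changed in opposite directions at T4 after the 2 stimulations. In mock-stimulated cells at T4 its level was 4.17, 4.58, 4.86 and 5.12 in rabbits 1, 2, 4 and 5. After PMA-Ionomycin it was 5.96, 5.29, 6.50 and 6.29, and after LPS it was 3.79, 3.22, 1.94 and 3.83. All PMA-Ionomycin values were above and all LPS values below the mock values, and both log2 FC use the same mock arrays. PGAM1 had a log2 FC of 1.33 ± 0.33 after PMA-Ionomycin (2.51-fold, adjusted p = 0.00367). After LPS it was -1.49 ± 0.33 (2.80-fold lower, adjusted p = 0.0384). The fall after LPS ranged from 0.38 in rabbit 1 to 2.92 in rabbit 4, and without the LPS array of rabbit 4 at T4 the log2 FC was -1.07 (adjusted p = 0.165).

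At T24 PGAM1 was at 5.63, 5.43, 4.81 and 5.35 in mock-stimulated cells, at 5.98, 5.80, 5.22 and 5.75 after LPS, and at 5.45, 5.17, 5.73 and 5.82 after PMA-Ionomycin. The 3 groups overlapped. The log2 FC at T24 was 0.39 ± 0.33 after LPS (adjusted p = 0.796), although each rabbit was higher by between 0.36 and 0.41, and 0.24 ± 0.33 after PMA-Ionomycin (adjusted p = 0.706). The LPS effect on PGAM1 differed between the times by 1.87 ± 0.46 (adjusted p = 0.0369), the DE interaction among the 6 genes for LPS, where 1.94% of all genes were DE and 1.71% had a positive change. It was positive in 4 of 4 rabbits, but its adjusted p was between 0.0553 and 0.235 when any of the 4 rabbits was left out, where 7 to 402 of all genes were called in place of 562. For PMA-Ionomycin the change with time was -1.09 ± 0.46 (adjusted p = 0.103). By mean, PGAM1 stood at 6.01 after PMA-Ionomycin at T4, 5.69 after LPS at T24, 5.54 after PMA-Ionomycin at T24, 5.30 in mock at T24, 4.68 in mock at T4 and 3.20 after LPS at T4, and only the last group was clear of its neighbour.

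ENO1, which makes phosphoenolpyruvate in the step after PGAM1, was not DE in any of the 7 comparisons. Its level ranged from 6.12 to 6.52 in mock at T4, from 4.22 to 6.15 after LPS at T4 and from 5.72 to 6.76 after PMA-Ionomycin at T4. At T24 the ranges were 6.44 to 6.96 in mock, 6.96 to 7.34 after LPS and 6.27 to 6.93 after PMA-Ionomycin. The largest departure from mock was after LPS at T4, with a log2 FC of -0.88 ± 0.29 (adjusted p = 0.138), to which rabbit 1 gave 0.04 and rabbit 4 gave -2.19. After PMA-Ionomycin the log2 FC was -0.03 ± 0.29 at T4 (adjusted p = 0.972) and -0.08 ± 0.29 at T24 (adjusted p = 0.911). Taken singly, the 5 shifted probes gave log2 FC between -0.91 and -0.83 after LPS at T4.

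PKM, which forms pyruvate and ATP in the last step, rose after PMA-Ionomycin at T4 and did not stay up at T24. At T4 its level was 7.74, 8.22, 7.94 and 7.14 in mock-stimulated cells of rabbits 1, 2, 4 and 5, and 8.83, 8.28, 9.03 and 8.59 after PMA-Ionomycin. The groups were apart by a narrow gap, because rabbit 2 was only 0.06 higher. Its PMA-Ionomycin array at T4 had a low share of spots well above background (52.6%). That array was the lowest of its group for PFKP, PGAM1, ENO1, PKM and TKT, but not for HK2. The share that array quality had in this was not tested. PKM had a log2 FC of 0.92 ± 0.31 (1.89-fold, adjusted p = 0.032). The call was lost without rabbit 1, 4 or 5, with quantile normalization (log2 FC 0.60, adjusted p = 0.13), with normexp (adjusted p = 0.123) and with the deposited log2 table (adjusted p = 0.0555). At T24 the mock levels of PKM were 9.07, 8.60, 8.14 and 7.87 and the PMA-Ionomycin levels were 7.99, 7.32, 7.87 and 7.91, which overlapped (log2 FC -0.65 ± 0.31, adjusted p = 0.12). In 4 of 15 alternatives PKM was called lower here, with quantile normalization (log2 FC -1.34, adjusted p = 5.2e-04), normexp (-1.32), the processed signal (-0.95) and array weights (-0.72). The effect of PMA-Ionomycin on PKM differed between T4 and T24 by -1.57 ± 0.43 (adjusted p = 0.00976, lower in 4 of 4 rabbits). With TKT, it was 1 of 2 DE interactions among the 6 genes for PMA-Ionomycin, where 22.5% of all genes were DE, 14.4% of all with a positive and 8.16% with a negative change.

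After LPS at T4 the PKM level was 7.53, 7.11, 5.73 and 6.38, lower than mock in 4 of 4 rabbits but overlapping with it. The log2 FC was -1.08 ± 0.31, with an adjusted p of 0.0847 and of 0.0336 with the rabbit as a block. At T24 the log2 FC after LPS was 0.54 ± 0.31 (adjusted p = 0.583). The LPS effect changed by 1.62 ± 0.43 between the times (adjusted p = 0.0544, and 0.0216 with the rabbit as a block). By mean, PKM was at 8.96 after LPS at T24, 8.68 after PMA-Ionomycin at T4, 8.42 in mock at T24, 7.77 after PMA-Ionomycin at T24, 7.76 in mock at T4 and 6.69 after LPS at T4, and each group overlapped with its neighbour.

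TKT, the transketolase of the pentose phosphate pathway, moved most with time in culture. In mock-stimulated cells its level was 5.07, 5.65, 5.72 and 5.42 at T4 and 8.33, 8.5, 8.24 and 7.35 at T24 in rabbits 1, 2, 4 and 5. All T24 cultures lay well above all T4 cultures. The log2 FC over time was 2.64 ± 0.28 (adjusted p = 6.33e-07), or 6.24-fold. After PMA-Ionomycin at T4 the level was 5.83, 4.96, 5.66 and 5.26, overlapping with mock (log2 FC -0.04 ± 0.28, adjusted p = 0.97). At T24 it was 6.45, 6.06, 6.53 and 6.63 after PMA-Ionomycin, between the mock levels of the 2 times and apart from both. The log2 FC against mock at T24 was -1.69 ± 0.28 (3.22-fold lower, adjusted p = 3.91e-05), and the PMA-Ionomycin effect differed between the times by -1.65 ± 0.40 (adjusted p = 0.00348). Without rabbit 1, neither this interaction (adjusted p = 0.0622) nor that of PKM (adjusted p = 0.0547) was called.

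After LPS at T4 the TKT level was 4.61, 3.93, 2.92 and 4.39, below every mock culture. TKT had a log2 FC of -1.50 ± 0.28 (2.83-fold lower, adjusted p = 0.0215). It was -0.46 in rabbit 1 and -2.79 in rabbit 4, and without the LPS array of rabbit 4 at T4 it was -1.16 (adjusted p = 0.0952). At T24 the LPS cultures were at 7.93, 8.0, 8.0 and 7.93, within the range of mock (log2 FC -0.14 ± 0.28, adjusted p = 0.973). These 4 levels had an SD of 0.04, against 0.52 in mock at T24. The change of the LPS effect with time was 1.36 ± 0.40 (adjusted p = 0.0765). By mean, TKT was at 8.11 in mock at T24, 7.97 after LPS at T24, 6.42 after PMA-Ionomycin at T24, 5.46 in mock at T4, 5.43 after PMA-Ionomycin at T4 and 3.96 after LPS at T4. The overlapping neighbours were mock and LPS at T24, and mock and PMA-Ionomycin at T4.

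The fall after LPS at T4 was uneven between animals. Rabbit 4 gave the lowest difference from mock in HK2 (-1.22), PGAM1 (-2.92), ENO1 (-2.19), PKM (-2.21) and TKT (-2.79), but not in PFKP (-0.08). Rabbit 1 gave the smallest fall or a rise in all 6 genes, from -0.46 for TKT to 0.46 for PFKP. Without the LPS array of rabbit 4 at T4, which had the lowest share of spots well above background, 0 of the 6 genes were called, and likewise without rabbit 2 or rabbit 4 in all groups. Over all 28912 genes, 296 were called with every array, 3 without this array, 0 without rabbit 2 and 0 without rabbit 4, so that the loss was one of the whole comparison. The direction stayed lower for all 6 genes under every alternative tried. The share that array quality had in this was not tested.

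**Figure D3:**
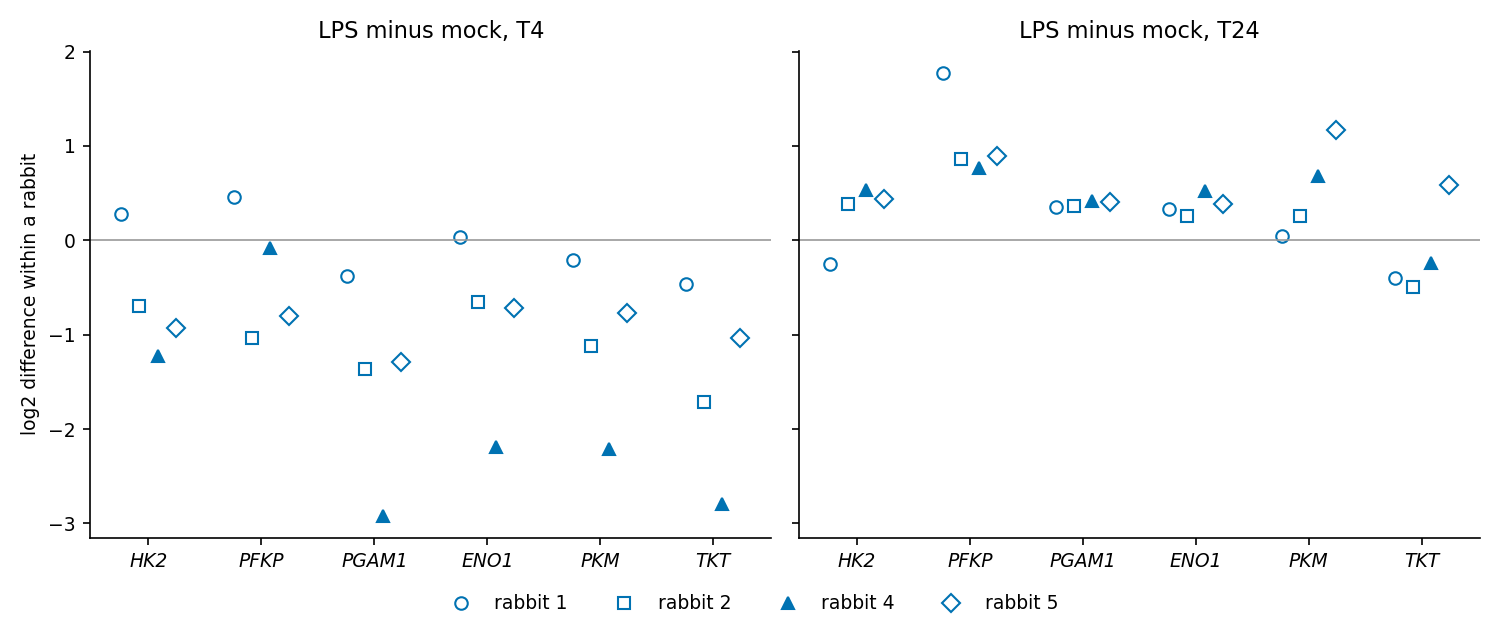
Difference of the level after LPS from that of mock-stimulated cells in the same rabbit (log2 units, vertical axis) for the 6 genes at T4 (left) and T24 (right), with 1 symbol per rabbit and rabbit 4 filled. At T4 rabbit 4 is lowest in 5 genes, and at T24 PFKP, PGAM1, ENO1 and PKM are above 0 in all 4 rabbits.

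PGD, an NADPH-making enzyme of the oxidative branch, moved in the same comparisons as TKT. In mock-stimulated cells it rose from 1.63, 2.90, 2.7 and 2.43 to 4.16, 4.62, 3.85 and 4.53 (log2 FC 1.88 ± 0.27, adjusted p = 2.56e-05). All T24 cultures lay above all T4 cultures. After PMA-Ionomycin at T24 PGD was at 2.69, 2.62, 2.66 and 2.83, below all mock cultures of T24 (log2 FC -1.59 ± 0.27, adjusted p = 3.98e-05). PGD also fell after LPS at T4, with a log2 FC of -1.35 ± 0.27 (adjusted p = 0.0253). RPE, of the non-oxidative branch, rose in mock-stimulated cells over time (log2 FC 0.50, called in 11 of 15 alternatives and not without rabbit 1, 2 or 4) and, unlike TKT, also after PMA-Ionomycin at T24 (log2 FC 0.86 ± 0.14, adjusted p = 3.41e-05). H6PD, PGLS, RPIA and TALDO1 of the same pathway were not analysed here.

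Monocyte markers moved where TKT and PGD did. Some were also called lower where TKT was not DE, after PMA-Ionomycin at T4 and after LPS at T24. The mean level of 9 measured markers lay between 2.57 and 3.40 in mock at T4 and between 4.11 and 5.18 in mock at T24, and 7 of the 9 rose over time. After PMA-Ionomycin it was 1.61 to 2.09 at T4 and 1.47 to 2.21 at T24, with 5 and 8 of the 9 called lower. After LPS it was 2.06 to 2.68 at T4 and 3.86 to 4.80 at T24, with 2 called lower at each time. CSF1R and CD14 were the 2 lower markers at T4 (adjusted p = 0.0494 and 0.0374). Of 5 neutrophil markers 3 rose in mock over time (from 1.91 to 2.43 up to 3.18 to 3.68 in mean level), and 2 of the 5 were lower than mock after PMA-Ionomycin at T24 (mean level 2.05 to 2.19), where TKT and PGD fell, and 2 after LPS at T24 (2.65 to 3.08). In mock over time, of 4 platelet markers 3 fell (from 2.04 to 3.04 down to -0.41 to 0.29). After PMA-Ionomycin at T4, where PFKP, PGAM1 and PKM rose, 3 of the 4 platelet markers were also lower than in mock (median log2 FC -2.10), with a mean level of 0.23 to 1.3. B cell markers, 6 in number, were at 3.39 to 4.03 in mock at T4 and at 1.76 to 2.25 after PMA-Ionomycin at T4, with 4 called lower and 1 higher. At T24 after PMA-Ionomycin 3 B cell markers were lower and 1 was higher, and PRF1 of NK cells was higher (log2 FC 0.96). At T4 after PMA-Ionomycin PRF1 was lower (log2 FC -0.76), as was 1 of the 5 neutrophil markers (log2 FC -1.30). The 9 T cell markers had mean levels between 0.11 and 1.04 in all groups, but single markers were called in both directions. Of these 9, 2 were lower in mock over time, 1 was higher after PMA-Ionomycin at T4, and 1 was higher and 2 were lower after PMA-Ionomycin at T24. The part that these changes had in the levels of TKT and the other genes was not tested.

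**Figure D4:**
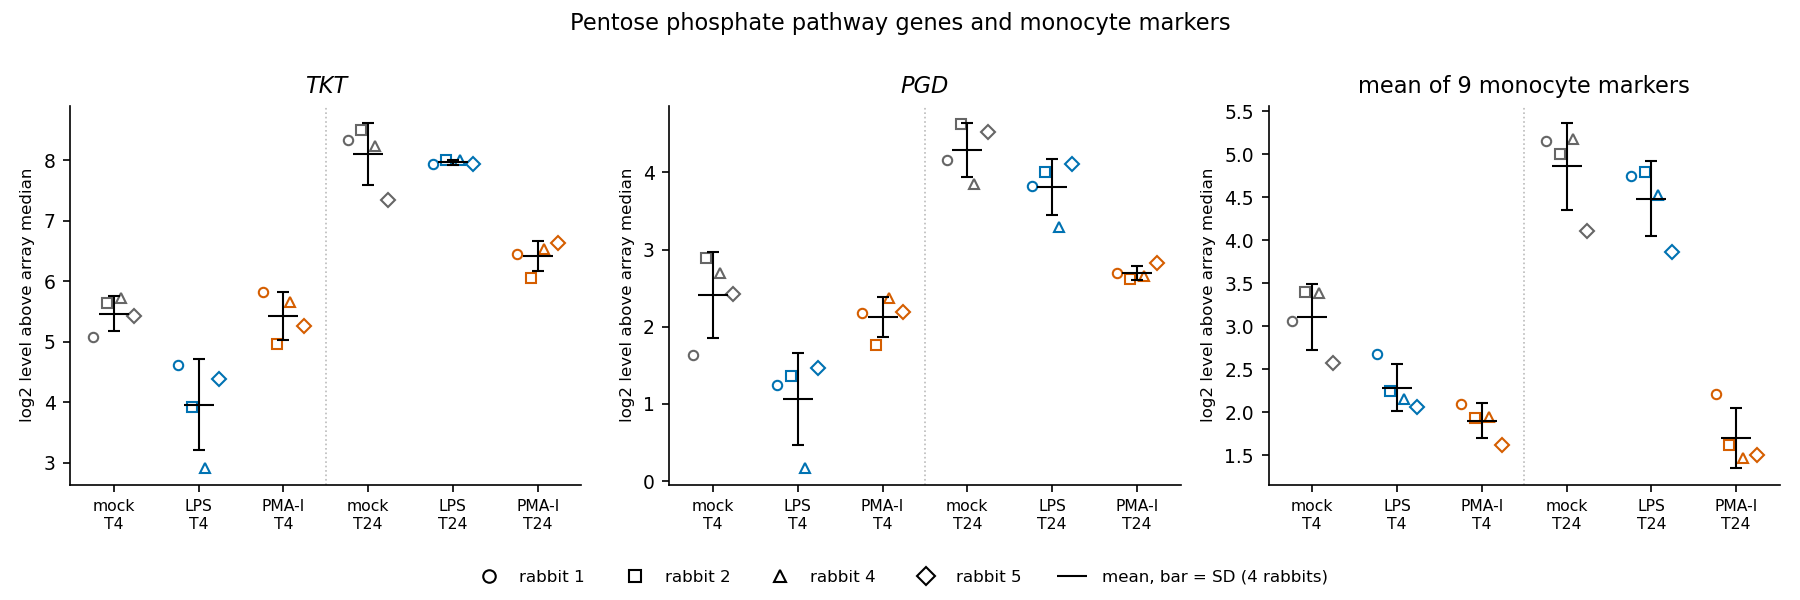
Levels of TKT and PGD and the mean level of 9 monocyte markers (log2 units above the array median, vertical axes) in the 6 groups, with 1 symbol per rabbit, the mean as a line and the SD of 4 rabbits as a bar. All panels are highest in mock and LPS at T24. After PMA-Ionomycin at T24 TKT and PGD lie between the mock levels of T4 and T24 on average, whereas the monocyte markers lie below both.

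Among the other genes of glucose metabolism on a written list, 48 of 77 were found. They comprise isoenzymes, other glycolytic steps, regulators of flux, transporters, enzymes of the pentose phosphate pathway, of pyruvate oxidation and of gluconeogenesis, transcription factors and other targets of the hypoxia-inducible factor (HIF). In mock-stimulated cells over time 10 rose and 1 fell, where 7.42% of all genes rose and 5.14% fell. Beside PGD, the rises included those of ANKRD37, a HIF target (log2 FC 1.29 ± 0.16), and GPI, which turns glucose 6-phosphate into fructose 6-phosphate (1.27 ± 0.28, from 4.73 to 5.69 at T4 up to 6.22 to 6.86 at T24). PCK2, the mitochondrial enzyme that makes phosphoenolpyruvate, fell (log2 FC -1.66 ± 0.25, adjusted p = 5.86e-05). ENO3, the muscle enolase, had a log2 FC of 0.34 ± 0.11 (adjusted p = 0.0451), a call that held in 6 of 15 alternatives and was lost without any 1 of the rabbits.

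Of the 48 genes, 4 fell and 0 rose after LPS at T4, where 0.968% of all genes fell and 0.0553% rose. PGD had the largest fall, followed by GPI (log2 FC -1.16 ± 0.28, adjusted p = 0.0475), HK1, the hexokinase of most tissues (-0.85 ± 0.19, adjusted p = 0.0394), and ENO3 (-0.46 ± 0.11, adjusted p = 0.0475), which was well above background on 2 of the 4 LPS arrays. GPI levels after LPS were 4.44, 3.86, 3.16 and 4.73 in rabbits 1, 2, 4 and 5, against 4.73, 5.20, 5.20 and 5.69 in mock. HK1 was at 1.57, 1.88, 0.70 and 1.76 against 2.12, 2.56, 2.35 and 2.29. In both genes rabbit 4 was again lowest, and without its LPS array at T4, where 0.0104% of all genes were called, 0 of the 48 were. Of 16 alternatives, the call of PGD held in 10, that of ENO3 in 6 and those of GPI and HK1 in 5 each. With the rabbit as a block 8 of the 48 were called, and 4.25% of all genes in place of 1.02%. After LPS at T24, 0 of the 48 were called in limma, and 14 had an unadjusted p under 0.05, as did 3137 of all 28912 genes.

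After PMA-Ionomycin at T4, 6 of the 48 rose and 2 fell, where 13.5% of all genes rose and 9.35% fell, so that the list did not hold a larger share of either than all genes did. SLC16A1, a carrier of lactate and pyruvate, rose by 1.84 ± 0.17 on the log2 scale (3.58-fold, adjusted p = 2.28e-08), and ADPGK, a glucokinase that uses ADP, by 1.82 ± 0.17 (3.52-fold, adjusted p = 1.95e-08). GAPDHS, the spermatogenic relative of GAPDH by the description in the files, rose by 1.17 ± 0.26, and HK1 by 0.74 ± 0.19 (adjusted p = 0.00507). The HK1 call was lost without rabbit 1. ARNT, the partner of the HIF subunits, fell by 0.46 on the log2 scale. PFKFB4, a regulator of phosphofructokinase, was well above background on 3 of 4 mock arrays and 0 of 4 stimulated arrays, and was at least 1.26-fold lower (adjusted p = 0.0135). The calls of ARNT and PFKFB4 were lost without rabbit 1, 2 or 4.

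After PMA-Ionomycin at T24, 15 of the 48 rose and 8 fell, where 22.1% of all genes rose and 11.5% fell. The leading rises were those of PDHB (log2 FC 1.78 ± 0.16, adjusted p = 6.46e-09) and DLAT (1.64 ± 0.17, adjusted p = 2.73e-08), subunits of the pyruvate dehydrogenase complex that brings pyruvate into the citric acid cycle, then SLC16A1 (1.37 ± 0.17) and LDHB, the heart type lactate dehydrogenase (1.03 ± 0.28, adjusted p = 0.0056). The call of LDHB was lost with quantile normalization, with normexp and without rabbit 2, and its log2 FC was as low as 0.36 over the alternatives. The leading falls were those of DDIT4 (log2 FC -1.80 ± 0.21), an inhibitor of mTOR signalling, PGD, NDRG1 (-1.06 ± 0.20) and ANKRD37 (-1.02 ± 0.16). DDIT4, NDRG1 and ANKRD37 stood on the list as HIF targets, of which 3 fell and 1 of 8 rose.

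The isoenzymes had values of their own at the steps of the main genes. At the hexokinase step after PMA-Ionomycin at T24, HK1 rose (log2 FC 0.61 ± 0.19, adjusted p = 0.0143) where HK2 fell, although the HK1 call was lost under 4 other scalings and without rabbit 1 or 5. At the phosphofructokinase step PFKM, the muscle isoform, had a log2 FC of 0.12 at T4 and rose at T24 (0.95 ± 0.28, adjusted p = 0.00976), a call lost without rabbit 4 and with the processed signal. Among the enolases ENO3 fell at T24 (-0.76 ± 0.11, adjusted p = 6.8e-06), ENO2, the neuronal enolase, had a log2 FC of 0.07, and neither rose with PGAM1 and PKM at T4. GPI fell at T24 (-1.0 ± 0.28, adjusted p = 0.00686), a call lost without rabbit 2. GAPDHS was called higher at both times. At T24 its log2 FC was 1.02, and the call was lost without rabbit 4 or 5 and with the processed signal. The lowest log2 FC over the alternatives was 0.69. PGK2, a phosphoglycerate kinase, had a log2 FC of 0.65 at T4 and 0.14 at T24 that was not called. RefSeq gives the name PGK2 to this probe, which the files describe as phosphoglycerate kinase 1. HKDC1, PKLR and ALDOC were not called in any comparison with mock, and HKDC1 and PKLR were well above background on 0 arrays. The differences between isoenzymes were not tested against each other.

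**Figure D5:**
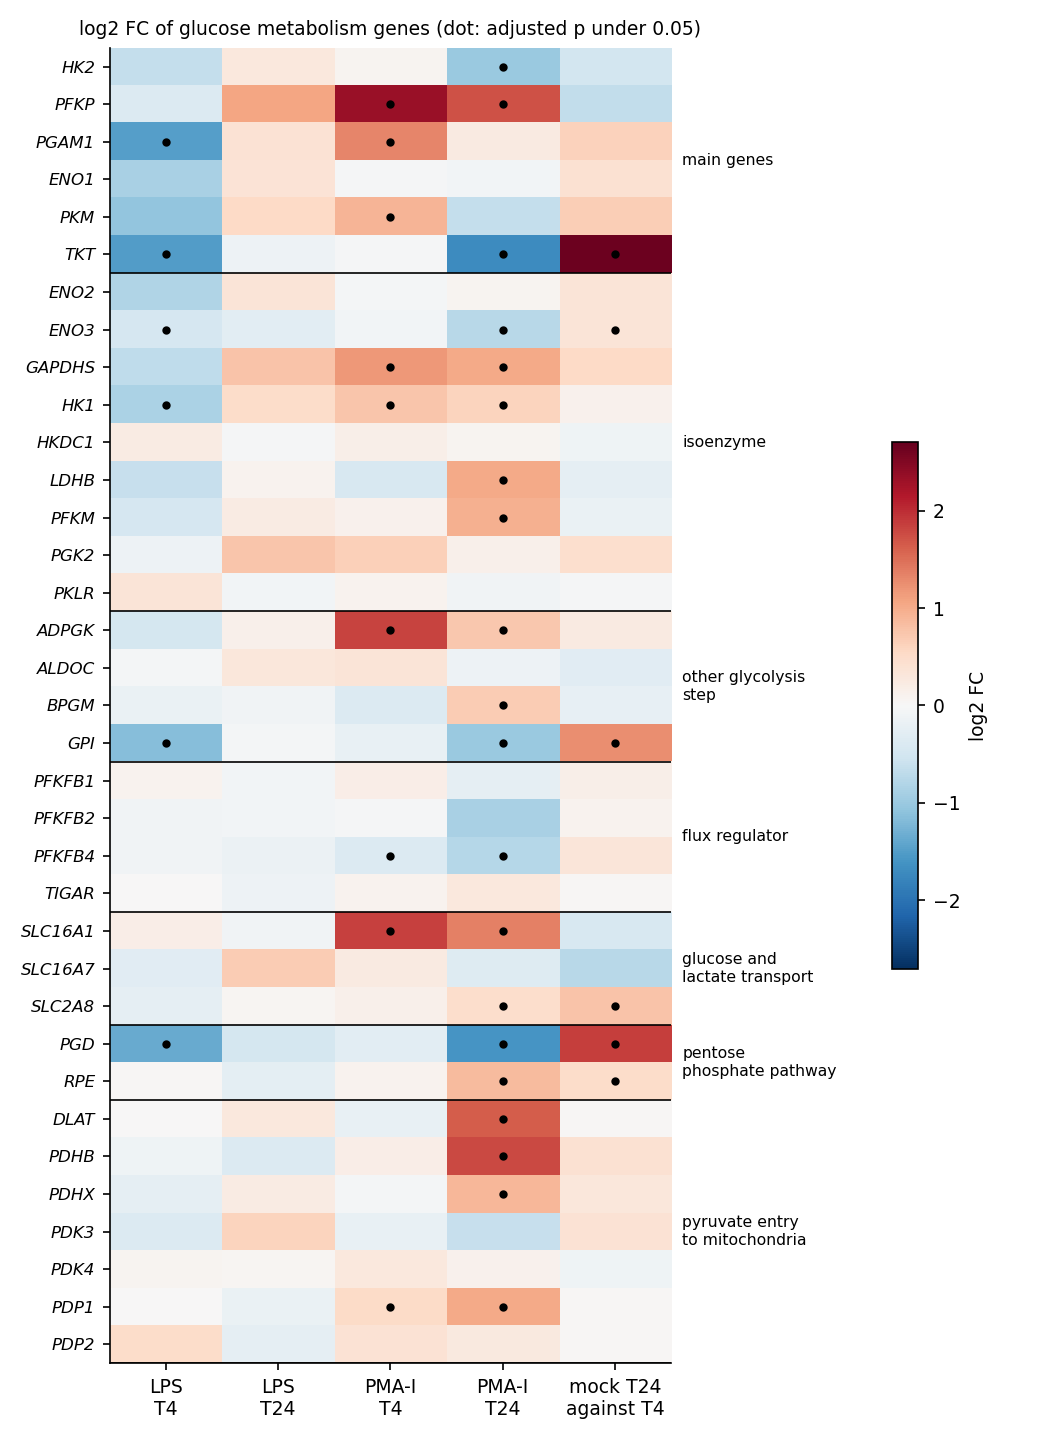
Log2 FC (colour, scale at right) of the 6 main genes and of the genes in 6 groups of the glucose metabolism list (rows) in the 4 comparisons with mock and in mock-stimulated cells over time (columns); a dot marks an adjusted p under 0.05. PMA-Ionomycin at T24 has the most dots, with rises of PDHB, DLAT and PDHX and falls of TKT, PGD and GPI, and LPS at T24 has none.

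B2M, a subunit of the major histocompatibility complex class I that served in the study as a reference gene for qRT-PCR, was not DE in any of the 7 comparisons. Its log2 FC against mock lay between -0.56 ± 0.34 (LPS at T24, adjusted p = 0.611) and 0.37 ± 0.34 (PMA-Ionomycin at T24, adjusted p = 0.502).

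The 6 genes fell into different patterns over the 24 arrays. Described by Pearson's r over arrays, which share groups and rabbits, ENO1 was closest to TKT (0.83), PGAM1 to PKM (0.83), and ENO1 to PGAM1 (0.82). PFKP and HK2 had values of -0.12 and 0.03 with TKT, and 0.11 with each other. Among 5891 other genes with a symbol that were well above background on at least 12 arrays, the 5 closest to the mean pattern of the 6 genes included PPM1G (r = 0.963), JAGN1 (0.954), METTL25B (0.947) and ACADVL (0.945). None of these 5 was on the list of glucose metabolism genes.

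The arrays lay on 3 slides of 8, each with all 6 groups. With the slide as a block the 12 DE results of the 6 genes kept their calls, with log2 FC between -1.80 (TKT, PMA-Ionomycin at T24) and 2.62 (TKT, mock over time), and the LPS interaction was called for PFKP (adjusted p = 0.0467) and TKT (adjusted p = 0.0308) as well. Within single slides, the direction was that of the fit in 27 of 27 differences that belong to the 9 called comparisons of groups. These differences reuse the arrays that made the calls, with 1 or 2 per group and slide, often from different rabbits. They are no separate replication. Within slides, the difference of TKT in mock over time was between 2.37 and 2.94, and after PMA-Ionomycin at T24 between -2.28 and -1.34. That of PFKP after PMA-Ionomycin was between 1.73 and 2.98 at T4 and between 1.32 and 1.87 at T24. HK2 after PMA-Ionomycin at T24 was between -1.50 and -0.96, and at T4 PGAM1 was between 0.78 and 1.77 and PKM between 0.61 and 1.51. After LPS at T4 the within-slide differences were between -2.57 and -0.77 for PGAM1 and between -2.47 and -1.15 for TKT.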

How the data were processed

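PBMCs of 4 rabbits were measured on 24 one-colour arrays in 6 groups. Per the labels the images were read with Agilent Feature Extraction 10.7.3.1, and the file headers name the GE1_107_Sep09 protocol and the oryCun2 build. The authors deposited scanner output, in which median, mean and background signals are uncorrected spot intensities and the processed signal is a background-subtracted intensity. The authors also deposited a log2 table, in which each log2 median signal is centred on the mean of its array.

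Following the methods of the study, log2 median signals were centred on the array median and averaged per gene. Spots with an outlier flag (280 to 370 per array) were left out here, a step that those methods do not mention. lmFit and eBayes of limma 3.58.1 (R 4.3.3) fitted a mean for each group, and p-values were adjusted by Benjamini-Hochberg over 28912 genes. Files were read with numpy 2.4.6 and pandas 2.3.3 in Python 3.11.15 and, in R, with data.table (version 1.17.8), and figures drawn with matplotlib 3.10.9. The fit was tested on simulated data. With no counts, the number of arrays limits the precision. Of 42089 probes, RefSeq (mOryCun1.1, no positions used) named 9684 by accession and 8879 by gene number. The files named a further 1936 with symbols known to RefSeq and 542 with others.

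The rabbit numbers mark the same animals. After group means were removed, the median correlation was 0.228 in 60 pairs of arrays that share an animal and -0.0755 in 180 that do not. The study's methods use no pairing, so the block was an alternative. No arrays held identical values.

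Genes and lists were chosen with earlier results of these data known. All genes of the rule were named, with isoenzymes, GPI, aldolases, B2M, up to 4 called rises and 4 falls per comparison among the listed genes, and the 5 genes of closest pattern. A probe below background on all arrays of a group gave only a bound, from the higher of the dim signal and the array's lowest signal well above background. Some genes that this rule names are not reported here. The alternatives are given in the closing section.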

Additional observations from a re-analysis of the deposited data

Results flagged for a closer look

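PFKP after PMA-Ionomycin at T24 was flagged because 1 rabbit lay far from the others. Rabbit 2 had a level of 3.48 and the other 3 rabbits lay between 4.16 and 4.25, so that the gap took 0.884 of the range of the group. It was 1 of 36 groups searched, and chance flags about 1 in 20.

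A further 3 results were flagged because the effect of a stimulation differed between T4 and T24 by the interaction in limma. For PGAM1 the LPS effect changed by 1.87 (adjusted p = 0.0369). For PMA-Ionomycin the change was -1.57 for PKM (adjusted p = 0.00976) and -1.65 for TKT (adjusted p = 0.00348). For TKT the log2 FC against mock was -0.04 at T4 and -1.69 at T24, and mock itself rose by 2.64 between them.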

How the results depend on the processing

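No called result of the 6 genes reversed. Of 188 refits of the 12 called results 156 kept the call and 32 lost it, and 38 refits called a result that was not called. PFKP after PMA-Ionomycin at both times, PGAM1 after PMA-Ionomycin at T4, TKT after PMA-Ionomycin at T24 and TKT in mock over time were called in all refits. After LPS at T4, 2 genes were called, but 1 with quantile normalization, with normexp (offset 50) and quantile normalization, and with the deposited log2 table, and 0 with the processed signal at its 75th percentile, with the arrays of the comparison alone, and without the LPS array of rabbit 4 at T4. Over all 28912 genes, 296 were called in this comparison, and 12, 0 and 3 under the last 3 settings, so that these losses are not particular to the 6 genes. After LPS at T24, 1 gene (PFKP) in place of 0 was called with quantile normalization, the processed signal, normexp, dim probes left out, the rabbit as a replicate block, array weights and single probes, where the share of all genes called, 1.22% in the report, was 1.02% with the processed signal, 2.61% with the replicate block and 3.24% with array weights. For the interaction of LPS and time, 1 gene was called, but 0 with the processed signal, the deposited table, the arrays of the comparison alone or without the LPS array of rabbit 4 at T4, 2 with quantile normalization and with normexp, 3 with dim probes left out, the replicate block, the slide as a block and single probes, and 5 with array weights. The share of all genes called for it rose as well, from 1.94% to 4.71% with dim probes left out, 2.2% with the slide as a block, 5.77% with the replicate block and 7.58% with array weights. For the interaction of PMA-Ionomycin and time, 2 were called, and 4 with array weights and with the processed signal. After PMA-Ionomycin at T24, 3 were called, and 4, with PKM, under quantile normalization, normexp, the processed signal and array weights. In mock over time, 1 was called, and 2 with the processed signal and with quantile normalization. The cause of these changes was not tested.

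Leaving out a rabbit gave 0 to 2 called genes for LPS at T4, 0 at T24, 2 to 3 for PMA-Ionomycin at T4 and at T24, 0 to 1 for the LPS interaction, 0 to 3 for the PMA-Ionomycin interaction and 1 for mock over time. The rabbit as a block changed no call other than those given with the results. The processed signal moved the median of all genes to 0.22 after LPS at T4, -0.16 after PMA-Ionomycin at T4 and -0.26 at T24. Keeping outlier spots and eBayes with trend and robust changed no count of the 6 genes. Of the 48 other genes, the alternatives called 0 to 8 after LPS at T4 (4 in the report), 0 to 1 at T24, 4 to 10 after PMA-Ionomycin at T4, 20 to 25 at T24 and 7 to 14 in mock over time, with the lowest values at T4 after PMA-Ionomycin (4) and in mock (7) given without rabbits 4 and 1. The arrays of rabbit 4 (LPS) and rabbit 2 (PMA-Ionomycin) at T4 were left out as alternatives chosen after seeing the data. A search of promoters for motifs was not run, because no promoter sequence was used here.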
